A study of Homo sapiens with 12 samples.

Results

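The integrated stress response was examined through 10 genes, chosen by symbol: ATF4, ATF3, DDIT3, TRIB3, ASNS, CHAC1, PSAT1, PHGDH, DDIT4 and FGF21. Each symbol matched 1 row of the deposited tables, which list 98711 genes, of which 27249 carry Ensembl identifiers. The choice used no measured value, but it was made with earlier results of these data known. The RNA came from Huh7 and HepG2, established human liver cancer lines labelled as wild-type hepatocellular carcinoma (HCC) cells, with 3 sorafenib-resistant and 3 parental samples of each line. Sorafenib is a multikinase inhibitor used against HCC. The resistant cells had survived a first dose of 10 μmol as labelled, followed by rising doses for 8 months, and the parental (labelled sorafenib sensitive) cells had no treatment. The sources used here do not say whether the drug was present when RNA was taken, whether a resistant line is 1 clone, or whether the 3 samples of a group are separate cultures, so the p-values measure only the spread between these samples. Resistance in each line is a single selection, so the selection and the drug cannot be told apart here.

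In the integrated stress response, kinases that sense amino acid shortage, unfolded proteins in the endoplasmic reticulum, haem shortage or double-stranded RNA phosphorylate the translation factor eIF2. General translation then falls while the ATF4 mRNA is translated more, so that the ATF4 protein, a bZIP transcription factor, can rise without a change in its mRNA. ATF4 binds C/EBP-ATF response elements (CAREs) and turns on genes of amino acid synthesis, amino acid uptake, tRNA charging and stress signalling. RNA levels report only on the transcripts of these genes, and neither eIF2 phosphorylation nor ATF4 protein was measured in the files.

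Depth calculated back from the values was 12290129 to 19285959 reads per sample, and it was lower in HepG2 parental (12290129 to 15728847) than in HepG2 resistant samples (16935538 to 18281775). All 10 hepatocyte and hepatoma markers had a mean of at least 1 FPKM (fragments scaled to exon length and to library size) in every group. Of 14 leukocyte, endothelial and fibroblast markers, 3 reached that mean in Huh7 parental, 3 in Huh7 resistant, 4 in HepG2 parental and 4 in HepG2 resistant samples. The summed levels of the leukocyte, endothelial and fibroblast lists were at most 3.89, 3.66 and 26.2 FPKM in any sample, against 5094 FPKM or more for the hepatocyte list.

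The binding element of ATF4 is shown first, because ATF4 binds it at genes that it turns on. RefSeq start sites (GRCh38.p14) gave 16 windows for the 10 genes, each running from 250 bases before to 50 bases after a start. The CARE was searched as TGATGNAA on both strands (TTNCATCA when read on the other strand), and it stood in 4 of the 16 windows, in 1 window each of ATF3, ASNS, CHAC1 and FGF21. Of all 35116 windows in the table, 3.62% hold it. In the lines below the element is in capitals, and each sequence is written along the strand of its gene. The ATF3 stretch is chr1:212565171-212565270, plus strand, with the element beginning 191 bases before the start.
ATF3 promoter: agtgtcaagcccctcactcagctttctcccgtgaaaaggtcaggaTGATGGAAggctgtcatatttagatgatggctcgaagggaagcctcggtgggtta
The ASNS stretch is chr7:97872458-97872487, minus strand, with the element 68 bases before the start, and it lies inside an exon of another annotated ASNS transcript.
ASNS promoter: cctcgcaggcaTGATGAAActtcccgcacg
The CHAC1 stretch is chr15:40953251-40953280, plus strand, with the element 209 bases before the start, and it too lies inside an exon of another transcript of its gene.
CHAC1 promoter: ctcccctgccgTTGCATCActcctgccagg
The FGF21 stretch is chr19:48755425-48755523, plus strand, with the element 54 bases before the start.
FGF21 promoter: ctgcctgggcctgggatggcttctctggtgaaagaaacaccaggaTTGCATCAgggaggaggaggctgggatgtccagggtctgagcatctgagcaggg
These letters were not found in the windows of ATF4, DDIT3, TRIB3, PSAT1, PHGDH and DDIT4. Elements outside the windows or spelled otherwise were not searched, so these genes may still have a CARE. Binding of ATF4 to any of these stretches was not measured. The cAMP response element TGACGTCA, which other ATF and CREB proteins bind, was in none of the 16 windows and in 1.85% of all windows. The 4 genes with the CARE in the window were the 4 for which at least 1 line did not reach the level needed for testing, as described below. Whether the element goes with the level of a gene was not tested.

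The genes differed widely in level, from 778 FPKM in a single sample of PSAT1 to no read of FGF21. TRIB3, PSAT1 and ATF4 were at 32.0 FPKM or more in every sample. DDIT4, DDIT3, PHGDH, ASNS, CHAC1 and ATF3 lay at 18.6 FPKM or less, and FGF21 was near 0. A gene was tested in a line when it reached 1 FPKM in at least 3 of the 6 samples. By this filter 7 of the 10 genes were tested in Huh7, where ATF3, ASNS and FGF21 were too low, and 8 of the 10 in HepG2, where CHAC1 and FGF21 were too low. Fold changes are differences of log2(FPKM + 1) between resistant and parental samples, which understate changes of low genes, and a gene is said to have risen or fallen when its Benjamini-Hochberg adjusted p over all genes tested (limma) was under 0.05.

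**Figure D1:**
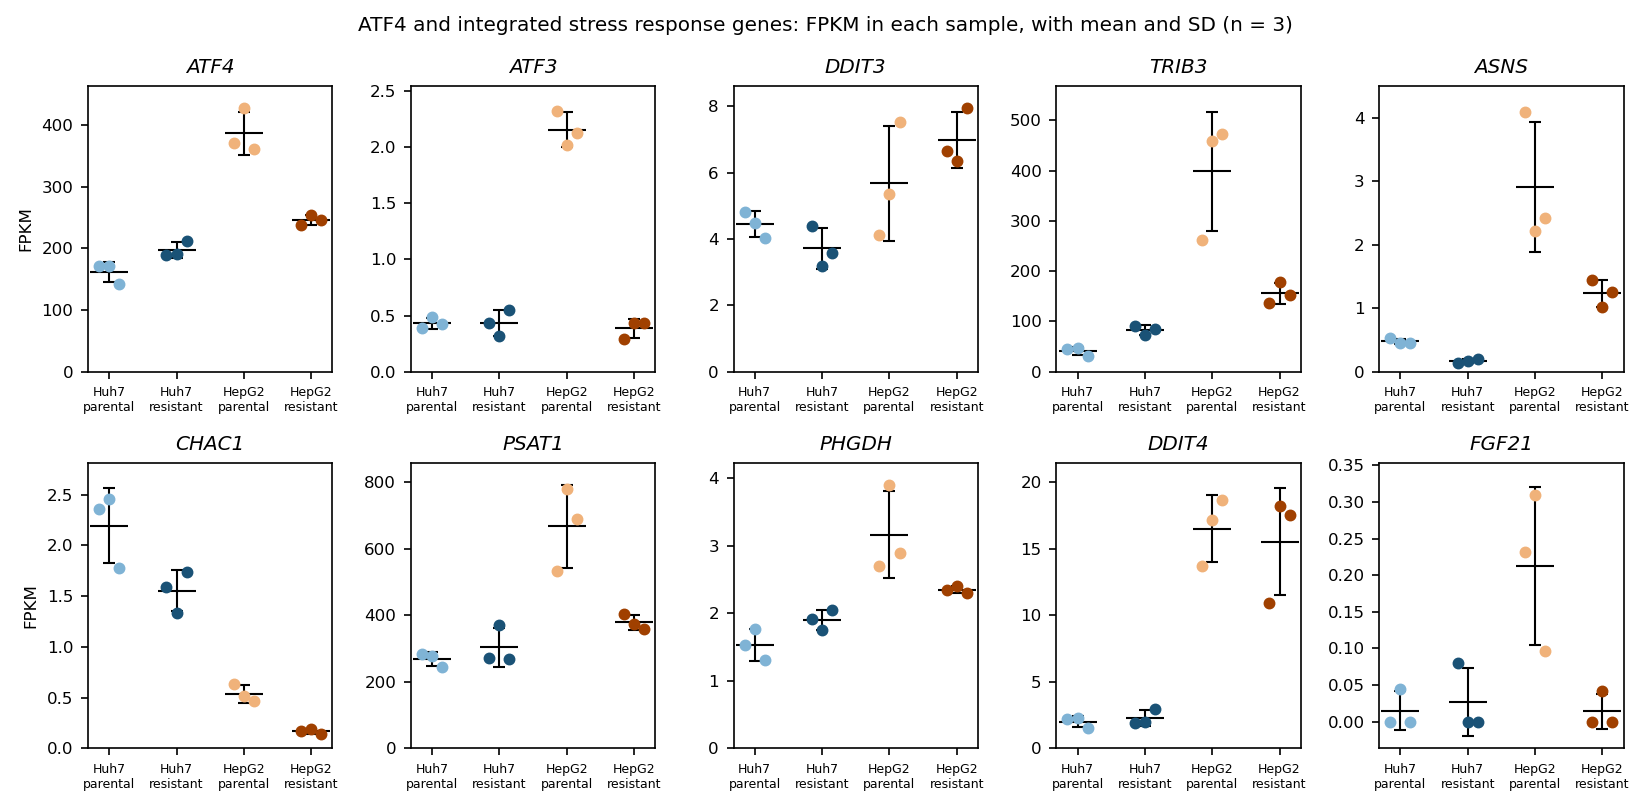
FPKM of the 10 genes in each sample (points) of Huh7 and HepG2 parental and resistant cells, with the group mean and SD (bar and whiskers, n = 3); each panel has its own vertical axis. HepG2 parental samples stand above the HepG2 resistant samples for ATF4, ATF3, TRIB3, ASNS, CHAC1, PSAT1, PHGDH and FGF21. In HepG2, CHAC1 had at most 17 reads per sample and FGF21 at most 5. In Huh7 the resistant samples stand above the parental ones for TRIB3 and ATF4, and below them for ASNS and CHAC1. Of all genes tested, 15.5% had every resistant sample below every parental one in HepG2. In Huh7, 39.2% did so, and 35.2% had every resistant sample above.

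The first comparison asked how the response differed between sorafenib-resistant and parental HepG2 cells. In HepG2, 5 of the 8 genes tested were lower in resistant cells (ATF4, ATF3, TRIB3, ASNS and PSAT1) and none was higher. TRIB3 fell to 0.405 of the parental level on the fitted scale. On the FPKM scale it fell to 0.392 of the parental mean, and the low gene ATF3 fell further, to 0.179. Over all 11762 genes tested, 8.43% were lower and 11.6% were higher. ATF3 reached the filter only through the parental samples and therefore had to differ. Without it, the count was 4 of 7. The count was 2 without HepG2 resistant replicate 3 and 3 without HepG2 parental replicate 1, where ATF3 no longer reached the filter. With all genes kept it was 3, made up of TRIB3, ATF3 and CHAC1. Every resistant sample lay below every parental sample for 6 of the 8 genes, or 5 of 7 without ATF3, and this was so for 15.5% of all genes tested. The median log2 change of the 8 genes was -0.71 (-0.65 without ATF3), and the median of all genes tested was 0.12, so that a fall was somewhat larger when set against the other genes. Relative to that median the changes were -0.76 for ATF4, -1.31 for ATF3, -1.42 for TRIB3, -0.90 for ASNS and -0.92 for PSAT1.

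ATF4 (ENSG00000128272, chromosome 22, 39519695 to 39522685, plus strand, GRCh38), the central transcription factor, measured 371, 427 and 361 FPKM in the 3 HepG2 parental samples. In HepG2 resistant samples it measured 238, 255 and 246 FPKM. Every resistant sample lay below every parental sample, and the means were 246 ± 8.33 and 387 ± 35.4 FPKM (SD, n = 3 each). The log2 change was -0.65 (SE 0.14, 95% interval -0.96 to -0.33, adjusted p = 0.0154). The call was lost without HepG2 resistant replicate 3 (log2 change -0.64, adjusted p = 0.0952), and also when genes of any level were kept (-0.65, 0.0675). Its own row rested on 10139 to 14292 reads per HepG2 sample, so counting error is small beside the spread between samples.

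TRIB3 (ENSG00000101255, chromosome 20, 362835 to 397559, plus strand) encodes a pseudokinase that ATF4 induces and that in turn restrains ATF4. It measured 262, 460 and 473 FPKM in HepG2 parental and 137, 178 and 152 FPKM in HepG2 resistant samples. The groups did not overlap, although parental replicate 1 lay nearer to the resistant samples than the other two did. The log2 change was -1.30 (SE 0.24, adjusted p = 0.00881), and it ranged from -1.58 to -1.15 when each of the 6 samples was left out in turn, with the call kept each time.

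ATF3 (ENSG00000162772, chromosome 1, 212565334 to 212620777, plus strand) encodes a stress-induced bZIP repressor downstream of ATF4. HepG2 parental samples had 2.32, 2.01 and 2.12 FPKM, from 100 to 135 reads. HepG2 resistant samples had 0.29, 0.43 and 0.43 FPKM, from 20 to 32 reads. The mean was thus 5.58-fold higher in parental than in resistant cells on the FPKM scale, and the log2 change on the log2(FPKM + 1) scale was -1.19 (SE 0.14, adjusted p = 0.00140). Its CARE-bearing promoter is the first printed above.

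DDIT3 (ENSG00000175197, chromosome 12, 57516588 to 57521737, minus strand) encodes CHOP, the pro-apoptotic partner of ATF4. Unlike the genes above, it was not lower in HepG2 resistant cells. It measured 4.14, 5.35 and 7.54 FPKM in parental and 6.64, 6.36 and 7.96 FPKM in resistant samples. The ranges overlapped, with a log2 change of 0.28 (95% interval -0.18 to 0.75, adjusted p = 0.341). The library was not strand-specific by its kit, and 27.2% of the exon bases of DDIT3 and 33.5% of its coding bases lie in exons of MARS on the other strand. MARS, which encodes methionyl-tRNA synthetase, averaged 59.6 FPKM in HepG2 parental and 28.8 FPKM in HepG2 resistant cells, so the DDIT3 row cannot be fully told apart from a neighbour that moved by -1.01 on the log2 scale (adjusted p = 0.0117). Its part in the DDIT3 value was not tested.

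Among the enzymes, PSAT1 (ENSG00000135069, chromosome 9, 78297143 to 78330093, plus strand), the aminotransferase of serine synthesis, measured 533, 778 and 690 FPKM in HepG2 parental samples. It measured 403, 375 and 358 FPKM in HepG2 resistant samples, all below the parental ones. The log2 change was -0.80 (SE 0.17, adjusted p = 0.0165). This call was lost without HepG2 resistant replicate 3 (adjusted p = 0.0866) and with no filter (0.0944). An antisense non-coding row, NONHSAG102065.1, spans 57.2% of the exon bases of PSAT1 and averaged 15.6 FPKM in HepG2 parental and 17.4 FPKM in HepG2 resistant cells.

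PHGDH (ENSG00000092621, chromosome 1, 119648411 to 119744226, plus strand) catalyses the step that commits carbon to serine synthesis. It measured 2.70, 3.90 and 2.89 FPKM in HepG2 parental and 2.35, 2.40 and 2.29 FPKM in HepG2 resistant samples. The ranges did not overlap, but the log2 change of -0.30 (95% interval -0.66 to 0.05) did not pass the test (adjusted p = 0.194). An antisense non-coding row (NONHSAG105516.1) spans 49.9% of the exon bases of PHGDH and averaged 5.03 FPKM in HepG2 parental and 3.30 FPKM in HepG2 resistant cells. The PHGDH row was thus far below PSAT1, the next enzyme of the same path, in all 12 samples. Whether reads in the shared stretch were counted was not tested.

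ASNS (ENSG00000070669, chromosome 7, 97852118 to 97872542, minus strand), asparagine synthetase, is among the best known targets of the amino acid arm of the response. It measured 4.09, 2.21 and 2.43 FPKM in HepG2 parental and 1.44, 1.02 and 1.25 FPKM in HepG2 resistant samples, from 83 to 239 reads. The groups did not overlap, and the log2 change was -0.78 (SE 0.20, adjusted p = 0.0300). The call was lost without HepG2 resistant replicate 2 (adjusted p = 0.0825), resistant replicate 3 (0.0927) or parental replicate 1 (0.0703), and with no filter (0.0970).

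Other rows lie within or across the ASNS locus. A same-strand row, AC079781.5 (ENSG00000284707, processed transcript), shares 44.6% of the exon bases and 96.1% of the coding bases of ASNS. Its group means were only 0.0202 to 0.246 FPKM. A processed pseudogene of 123 bases on the other strand within the locus, AC005326.1 (chromosome 7, 97870167 to 97870289), overlaps no ASNS exon. It measured 93.5, 98.6 and 52.7 FPKM in HepG2 parental and 35.5, 17.8 and 40.2 FPKM in HepG2 resistant samples (log2 change -1.39, adjusted p = 0.0238). It was lower in resistant cells like ASNS, at a level many times higher. How reads shared by several rows were counted is not given in the sources used here, so the ASNS level is uncertain, and the part of these rows in it was not tested.

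CHAC1 (ENSG00000128965, chromosome 15, 40952962 to 40956519, plus strand), a glutathione-degrading enzyme under ATF4, was below the filter in HepG2. It had 0.63, 0.51 and 0.46 FPKM in parental and 0.17, 0.19 and 0.14 FPKM in resistant samples. These values stand for 13 to 17 reads and 5 to 7 reads per sample, and the ranges did not overlap. With all genes kept and the reads calculated back from FPKM, an alternative chosen after seeing the data, limma-voom gave a log2 change of -1.61 (SE 0.50, adjusted p = 0.0320).

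DDIT4 (ENSG00000168209, chromosome 10, 72273920 to 72276036, plus strand), also called REDD1, an inhibitor of mTORC1, measured 13.7, 17.1 and 18.6 FPKM in HepG2 parental and 10.9, 18.2 and 17.5 FPKM in HepG2 resistant samples. The ranges overlapped, and the log2 change was -0.10 (95% interval -0.59 to 0.38, adjusted p = 0.757).

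FGF21 (ENSG00000105550, chromosome 19, 48755559 to 48758333, plus strand), a hepatokine that ATF4 induces in stressed liver, had 4, 5 and 2 reads in the 3 HepG2 parental samples. It had 0, 1 and 0 reads in the 3 HepG2 resistant samples. Pooled over samples and scaled to depth, the parental level was 14.0 times the resistant one, with an exact 95% counting interval of 2.04 to 603, which covers counting error only. The resistant samples lie under the 3 reads taken as the limit of detection, so no fold change of FGF21 is given from the fit.

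**Figure D2:**
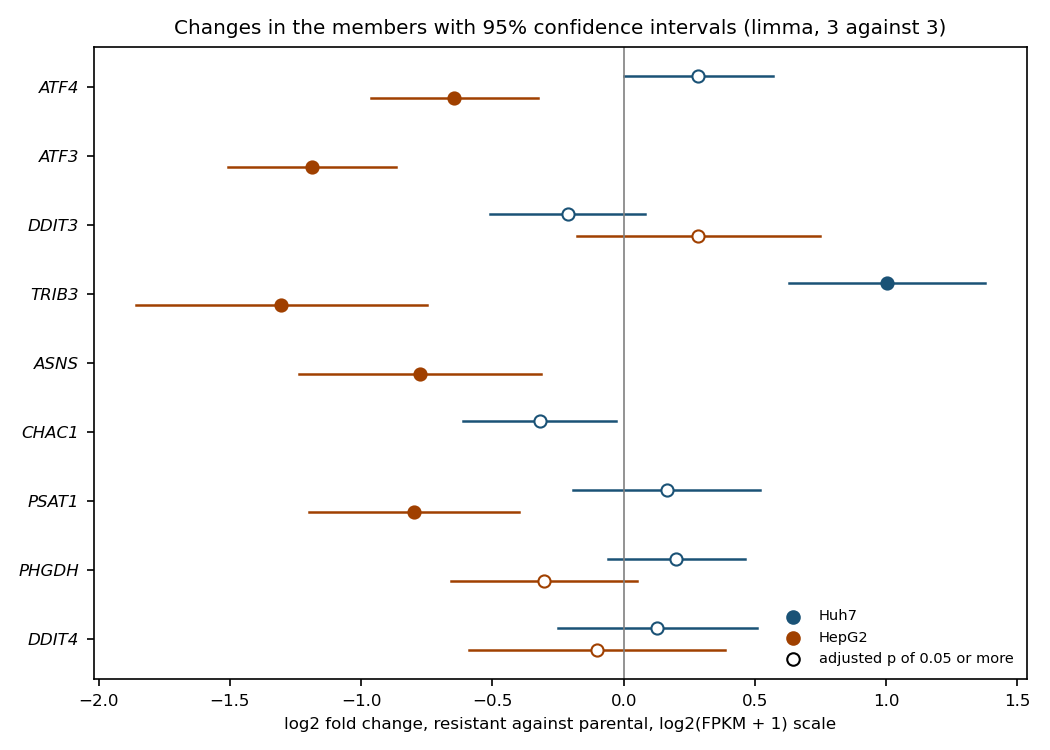
Log2 fold change of resistant against parental cells for each gene tested, in Huh7 (blue) and HepG2 (brown), with 95% confidence intervals (limma, 3 against 3 samples); filled points passed an adjusted p of 0.05. In HepG2 the 5 filled points lie at or below -0.65, and in Huh7 the only filled point is TRIB3 at 1.00; FGF21 was tested in neither line, so it is not shown.

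The same comparison in Huh7 gave a different picture. TRIB3 rose in resistant Huh7 cells and no gene fell, so that 1 of the 7 genes tested passed. Over all 12554 genes tested in Huh7, 32.7% were higher and 37.4% were lower in resistant cells. In this fit the line thus changed broadly while most of these genes did not pass. After removal of a trend with GC content, described below, PSAT1 also passed as higher and CHAC1, DDIT3 and DDIT4 as lower. The median log2 change of the 7 genes was 0.16, against -0.04 for all genes.

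TRIB3 measured 45.3, 46.8 and 32.0 FPKM in Huh7 parental and 90.7, 72.9 and 85.4 FPKM in Huh7 resistant samples. Every resistant sample lay above every parental sample. The log2 change was 1.00 (SE 0.16, 95% interval 0.63 to 1.37, adjusted p = 0.000730), that is, 2.00-fold. Both lines thus changed TRIB3, in opposite directions.

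ATF4 measured 172, 172 and 143 FPKM in Huh7 parental and 189, 190 and 213 FPKM in Huh7 resistant samples. The ranges did not overlap, which in Huh7 was also so for 35.2% of all genes tested in this direction. The log2 change of 0.28 (95% interval 0.002 to 0.57) narrowly missed the threshold (adjusted p = 0.0671).

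The enzymes of serine synthesis did not pass the test in Huh7. PSAT1 measured 283, 276 and 245 FPKM in parental and 271, 370 and 270 FPKM in resistant samples, with resistant replicate 2 well above the rest. Its log2 change was 0.16 (95% interval -0.19 to 0.52, adjusted p = 0.367). PHGDH measured 1.52, 1.77 and 1.30 FPKM in parental and 1.91, 1.76 and 2.04 FPKM in resistant samples, with a log2 change of 0.20 (95% interval -0.06 to 0.46, adjusted p = 0.147).

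CHAC1 measured 2.36, 2.45 and 1.77 FPKM in Huh7 parental and 1.59, 1.34 and 1.74 FPKM in Huh7 resistant samples. The resistant samples all lay below the parental ones, and the log2 change of -0.32 was just short of the threshold (95% interval -0.61 to -0.03, adjusted p = 0.0506). The share of all genes tested in Huh7 with every resistant sample below every parental one was 39.2%.

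DDIT3 measured 4.82, 4.50 and 4.02 FPKM in Huh7 parental and 4.40, 3.17 and 3.58 FPKM in Huh7 resistant samples, with a log2 change of -0.21 (95% interval -0.51 to 0.08, adjusted p = 0.168). DDIT4 measured 2.22, 2.31 and 1.50 FPKM in parental and 1.92, 1.99 and 2.99 FPKM in resistant samples, with a log2 change of 0.13 (95% interval -0.25 to 0.51, adjusted p = 0.503). The ranges of both genes overlapped.

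ATF3, ASNS and FGF21 were below the filter in Huh7. ATF3 had 0.39, 0.48 and 0.43 FPKM in parental and 0.43, 0.32 and 0.55 FPKM in resistant samples, and the ranges overlapped. ASNS had 0.53, 0.45 and 0.46 FPKM in parental samples, from 33 to 42 reads, and 0.14, 0.16 and 0.20 FPKM in resistant samples, from 12 to 17 reads. The ASNS ranges did not overlap, and limma-voom with all genes kept gave a log2 change of -1.49 (SE 0.36, adjusted p = 0.00107). The ASNS pseudogene row ASNSP1, which is elsewhere in the genome and could share reads with ASNS, averaged 6.93 FPKM in Huh7 parental and 1.70 FPKM in Huh7 resistant cells. FGF21 had 1 read in all Huh7 parental samples together and 2 in all Huh7 resistant samples together, which is under the limit of detection in both groups.

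The changes in Huh7 went with the base composition of the genes, and the cause of this was not tested. Across the 12554 genes tested in Huh7, the log2 change had a Spearman correlation of 0.62 with GC content, against 0.04 across the 11762 genes in HepG2; genes are not independent replicates, and all points share the same libraries. When this trend was removed, the TRIB3 change in Huh7 was 0.47 (adjusted p = 0.00804) and still passed. ATF4 turned from 0.28 to -0.23 (adjusted p = 0.0536), PHGDH to -0.17 (0.162) and DDIT4 to -0.41 (0.0388). CHAC1 moved to -0.82 (0.000392) and DDIT3 to -0.43 (0.0104), which passed as lower, and PSAT1 to 0.60 (0.00371), which passed as higher. The exons of PSAT1 have 42.3% GC, those of CHAC1 62.6% and those of TRIB3 60.9%, beside a median of 46.7% over the genes tested. In HepG2 all 5 falls passed after the same step, with log2 changes of -0.75 for ATF4, -1.25 for ATF3, -1.49 for TRIB3, -0.84 for ASNS and -0.89 for PSAT1. Over the 16 alternatives in Huh7, TRIB3 passed each time with log2 changes of 0.47 to 1.17. CHAC1 (-0.82 to -0.21) and DDIT3 (-0.43 to -0.08) kept a negative sign and PSAT1 (0.01 to 0.60) a positive one, whereas ATF4, PHGDH and DDIT4 changed sign.

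**Figure D3:**
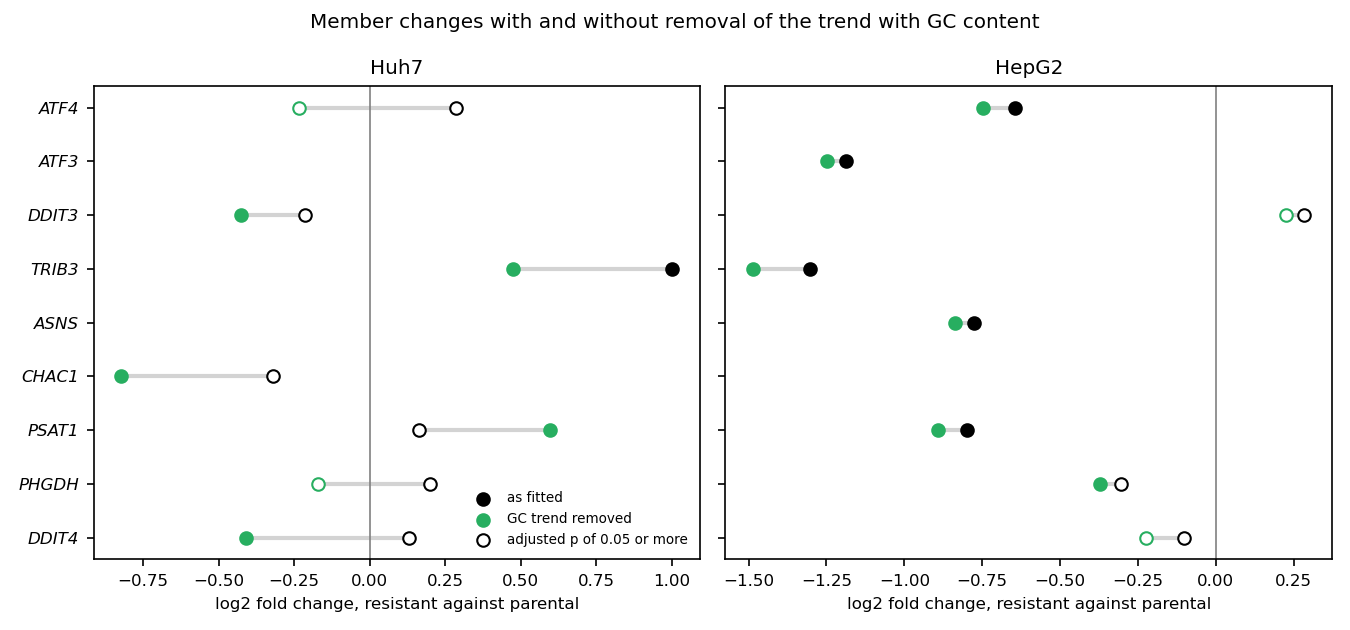
Log2 fold change of resistant against parental cells for each gene tested in Huh7 (left) and HepG2 (right), as fitted (black) and after removal of the trend with GC content (green); filled points passed an adjusted p of 0.05. In Huh7 the points of ATF4, PHGDH and DDIT4 cross 0, whereas in HepG2 no point does.

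Whether the 2 lines differed was tested directly, as the change in Huh7 minus the change in HepG2 over all 12 samples. The difference passed for 5 of the 9 genes tested, and in each the change was more positive in Huh7: TRIB3, ATF3, PSAT1, ATF4 and PHGDH. Over all 13800 genes tested, 23.1% were more positive and 33.2% more negative in Huh7, with a median difference of -0.15. The difference was 2.31 (SE 0.32, adjusted p = 0.000153) for TRIB3 and 0.93 (SE 0.16, adjusted p = 0.000592) for ATF4. It was 0.96 (SE 0.23, adjusted p = 0.00453) for PSAT1 and 1.18 (SE 0.13, adjusted p = 3.5e-05) for ATF3, whose filter was again reached through HepG2 parental samples alone. PHGDH had 0.50 (SE 0.17, adjusted p = 0.0249), which did not pass after removal of the GC trend (0.27, adjusted p = 0.110) or without Huh7 resistant replicate 3 (adjusted p = 0.0611), Huh7 parental replicate 3 (0.0629) or HepG2 resistant replicate 3 (0.0526). For TRIB3, PSAT1 and ATF4 the difference passed in all 21 alternative fits. For ATF3 it passed in 18, and without 1 HepG2 parental sample ATF3 was below the filter and not tested.

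The other 4 genes did not pass. The difference was -0.50 for DDIT3 (95% interval -1.04 to 0.04, adjusted p = 0.105), 0.44 for ASNS (-0.04 to 0.91, adjusted p = 0.105), 0.23 for DDIT4 (-0.40 to 0.87, adjusted p = 0.515) and 0.08 for CHAC1 (-0.25 to 0.41, adjusted p = 0.688). These intervals do not show that the lines act alike.

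The starting levels of the lines were then compared in the parental cells. Of the 9 genes tested, 7 were lower in Huh7 parental than in HepG2 parental cells. ATF3 and ASNS reached the filter through HepG2 samples alone and CHAC1 through Huh7 samples alone, so the filter favoured the direction of these 3. Of the 6 genes that reached 1 FPKM in both lines, 5 were lower in Huh7 and none was higher. Over all genes tested, 27.4% were lower and 39.8% higher in Huh7, with a median log2 difference of 0.18. The log2 difference (Huh7 minus HepG2) was -3.21 (SE 0.23) for TRIB3, -2.54 (SE 0.20) for DDIT4, -1.37 (SE 0.15) for ASNS, -1.30 (SE 0.16) for PSAT1, -1.25 (SE 0.11) for ATF4, -1.14 (SE 0.09) for ATF3 and -0.71 (SE 0.12) for PHGDH, with adjusted p-values from 1.9e-07 for TRIB3 to 0.000262 for PHGDH. CHAC1 went the other way, at 1.05 (SE 0.11, adjusted p = 4.3e-06), and DDIT3 did not pass (-0.26, adjusted p = 0.197).

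Set in order, ATF4 and TRIB3 followed the same sequence: highest in HepG2 parental, then HepG2 resistant, then Huh7 resistant, and lowest in Huh7 parental cells, with no overlap between neighbours. The group means of TRIB3 were 398 ± 118, 156 ± 20.8, 83.0 ± 9.13 and 41.3 ± 8.12 FPKM (SD, n = 3 each). For ATF4 the step between the Huh7 groups did not pass (limma, adjusted p = 0.0671), and it turned to -0.23 with the GC trend removed. Such a step without overlap was common: 35.2% of all genes tested in Huh7 had every resistant sample above every parental one. In HepG2, 15.5% had every resistant sample below. PSAT1 and PHGDH had the same order, but the 2 Huh7 groups overlapped for both, and so did HepG2 resistant and Huh7 resistant cells for PSAT1. ASNS differed in having Huh7 parental cells above Huh7 resistant cells. CHAC1 was the only gene of the 10 with both Huh7 groups above both HepG2 groups. ATF3 was high in HepG2 parental cells alone, and its other 3 groups overlapped. For DDIT3 every neighbouring pair overlapped.

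Profiles were compared over the 12 samples by the root mean square difference of centred log2(FPKM + 1) values. Of the 10 genes, PSAT1 was the nearest to ATF4 (0.18), and it ranked 46 of the 6970 other genes with a mean of at least 5 FPKM. DDIT3 ranked 1368 (0.45), TRIB3 4217 (0.75) and DDIT4 5112 (0.86). This measure counts the size of the swings as well as their direction. In both lines the mean of DDIT3 moved opposite to that of ATF4. As fitted, neither DDIT3 nor DDIT4 passed the test in either line. The genes with the smallest difference from ATF4 were RERE (0.092), CDYL (0.096) and KRT10 (0.098). RERE, for example, averaged 21.6 FPKM in Huh7 parental, 28.1 in Huh7 resistant, 56.1 in HepG2 parental and 36.5 in HepG2 resistant cells. Among the 10 genes themselves, ATF4 was nearest to ATF3 (0.27), ASNS (0.36) and PSAT1, while TRIB3 and DDIT4 were nearest to each other (0.59). PHGDH and FGF21 were nearest to each other (0.20), and DDIT3 was nearest to PHGDH (0.33) and CHAC1 to FGF21 (0.62). FGF21 had at most 5 reads in any sample, so its profile is nearly flat. Being near it does not show that genes vary together.

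The wider pathway was described with gene lists. Of 20 further ATF4 targets that encode regulators and stress proteins, 16 were tested in HepG2. There 12 were lower in resistant cells, none was higher, and the median log2 change was -0.77, beside 0.12 for all genes. MAP1LC3B, an autophagosome protein, fell from 117 ± 15.8 to 39.0 ± 0.696 FPKM (log2 change -1.56, adjusted p = 0.000551). CEBPB, a bZIP partner of ATF4, fell from 43.7 ± 7.5 to 18.7 ± 1.69 FPKM (-1.17, adjusted p = 0.00255). Without HepG2 resistant replicate 3 the count that fell was 4 of 16. The share of all genes that fell in HepG2 was 8.43%, as given above. In Huh7, 5 of 15 tested rose and 4 fell, where 32.7% of all genes rose and 37.4% fell. ATG5 and VLDLR reached the filter only through the Huh7 parental samples and had to be lower, and without them 2 of 13 fell. After removal of the GC trend, 6 of 15 fell. SQSTM1, the autophagy receptor p62, rose from 24.8 ± 3.85 to 76.9 ± 12.4 FPKM (1.59, adjusted p = 7.7e-05), and STC2, a secreted stress protein, rose from 5.13 ± 0.876 to 16.1 ± 1.19 FPKM (1.49, adjusted p = 4.9e-05). The difference between the lines passed for 13 of 17 genes. It was more positive in Huh7 for 12, beside 23.1% of all genes, and more negative for 1, ATG5, which reached the filter through Huh7 parental samples alone.

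The amino acid and one-carbon enzymes were more divided. Of 16 tested in HepG2, 5 were lower and 3 higher (median -0.24), beside 8.43% and 11.6% of all genes. BCAT1 reached the filter only through HepG2 parental samples and had to be lower, and without it 4 of 15 were lower (median -0.15). CTH, which makes cysteine from cystathionine, fell from 42.6 ± 4.6 to 6.08 ± 0.596 FPKM (log2 change -2.62, adjusted p = 6.3e-05). GOT1, the cytosolic aspartate aminotransferase, fell in HepG2 from 151 ± 31.9 to 34.9 ± 7.6 FPKM (-2.08, adjusted p = 0.000709) and rose in Huh7 from 12.2 ± 2.08 to 31.3 ± 2.47 FPKM (1.30, adjusted p = 8.9e-05). In Huh7, 9 of 16 were higher and 3 lower (median 0.37), beside 32.7% and 37.4% of all genes, and among the higher was MTHFD1, a folate enzyme, at 1.07 (adjusted p = 9.5e-05). The HepG2 counts were less even without single samples: none was higher without HepG2 resistant replicate 2 or 3, 1 was higher without HepG2 parental replicate 1 or 3, and 3 were lower without HepG2 parental replicate 2 or 3. In Huh7, 1 was lower after removal of the GC trend.

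Of the 10 amino acid transporters, 9 were tested in each line. In HepG2, 4 were lower and none was higher (median -0.79), beside 8.43% and 11.6% of all genes. In Huh7, 6 were higher and 2 lower (median 0.45), beside 32.7% and 37.4% of all genes, but after removal of the GC trend only 2 were higher. SLC7A11, the cystine importer, fell in both lines, from 62.2 ± 13.8 to 16.9 ± 5.44 FPKM in HepG2 (-1.84, adjusted p = 0.00193) and from 22.7 ± 3.94 to 9.67 ± 1.38 FPKM in Huh7 (-1.15, adjusted p = 0.000295). SLC38A2, a carrier of small neutral amino acids, also fell in both, by 1.08 on the log2 scale in HepG2 (adjusted p = 0.0105) and by 1.05 in Huh7 (0.000113). SLC1A5, a glutamine carrier, rose in Huh7 from 7.74 ± 1.58 to 28.9 ± 4.3 FPKM (1.78, adjusted p = 5.3e-05) and fell in HepG2 (-0.85, adjusted p = 0.0109).

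All 20 cytosolic aminoacyl-tRNA synthetases, which charge tRNAs with amino acids, were tested in both lines. In HepG2, 6 were lower and none was higher (median -0.37), beside 8.43% and 11.6% of all genes. The largest falls were those of YARS (-1.65, adjusted p = 0.00141) and SARS (-1.13, adjusted p = 0.00297), the enzymes for tyrosine and serine. Without HepG2 resistant replicate 3, 2 were lower, and after removal of the GC trend, 12 were. In Huh7, 11 were higher and 5 lower (median 0.34), beside 32.7% and 37.4% of all genes. VARS, for valine, rose (1.12, adjusted p = 0.000469) and EPRS, for glutamate and proline, fell (-1.18, adjusted p = 0.000117). The difference between the lines was more positive in Huh7 for 12 of the 20 and more negative for 1, beside 23.1% and 33.2% of all genes.

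**Figure D4:**
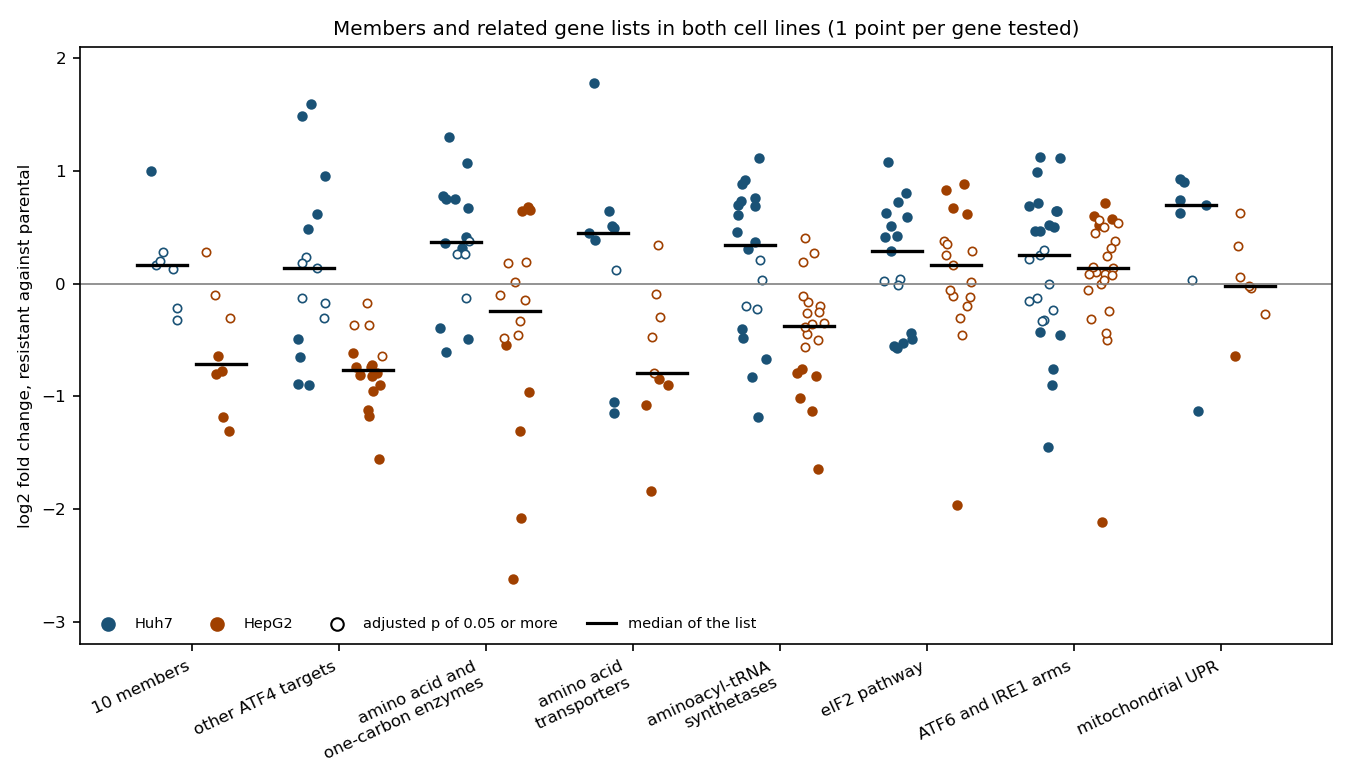
Log2 fold change of resistant against parental cells for each gene tested in the 10 genes and 7 related lists, in Huh7 (blue) and HepG2 (brown); filled points passed an adjusted p of 0.05 and black bars are list medians. The HepG2 medians of the 10 genes, other ATF4 targets, transporters and synthetases lie at -0.71, -0.77, -0.79 and -0.37, while those of the eIF2 pathway and of the ATF6 and IRE1 arms lie at 0.17 and 0.14.

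Upstream of ATF4, a list holds the eIF2 kinases, the eIF2 and eIF2B subunits and the eIF2 phosphatases. It also holds GCN1, IMPACT, OMA1 and KIAA0141, of which GCN1 and KIAA0141 rose and IMPACT and OMA1 fell in Huh7. Of 17 tested in HepG2, 4 were higher and 1 lower, beside 11.6% and 8.43% of all genes. The 4 kinases are given in full, a choice made after their values were seen. In HepG2, EIF2AK3 (PERK), EIF2AK4 (GCN2) and EIF2AK1 (HRI) rose, by log2 changes of 0.89, 0.83 and 0.61 (adjusted p = 0.0195, 0.00445 and 0.0239), and EIF2AK2 (PKR) did not pass (0.38, 0.175). In Huh7, EIF2AK3 (-0.53, adjusted p = 0.00260) and EIF2AK2 (-0.44, 0.00672) fell, EIF2AK4 rose (0.43, 0.00456) and EIF2AK1 did not pass (0.04, 0.720). Without HepG2 resistant replicate 3, 1 gene of the list was higher in HepG2. The gene of the list that fell in HepG2 was PPP1R15A (GADD34), itself a target of the response, which brings the phosphatase to eIF2. It went from 39.5 ± 5.07 to 9.36 ± 0.834 FPKM (-1.96, adjusted p = 0.000211). In Huh7, 9 of 17 were higher and 5 lower (10 and 2 after removal of the GC trend), beside 32.7% and 37.4% of all genes, with PPP1R15A higher by 0.81 (adjusted p = 0.00109) and EIF2S3, the gamma subunit of eIF2, higher by 1.08 (adjusted p = 0.000266).

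The other arms of the unfolded protein response share the endoplasmic reticulum stress signal with PERK. Of 25 genes of the ATF6 and IRE1 arms tested in HepG2, 4 were higher and 1 was lower, beside 11.6% and 8.43% of all genes. The median was 0.14, close to that of all genes. With median-ratio scaling none was higher and 3 were lower, and none was higher without HepG2 resistant replicate 2, resistant replicate 3 or parental replicate 3, so that the balance of this list rests on the scaling and on single samples. ERN1, which encodes IRE1, fell from 17.4 ± 2.51 to 3.23 ± 0.232 FPKM (-2.11, adjusted p = 0.000188). In Huh7, 11 were higher and 5 lower, beside 32.7% and 37.4% of all genes. XBP1, the transcription factor spliced by IRE1, was higher by 1.12 (adjusted p = 0.000132) and SDF2L1, a chaperone cofactor, also by 1.12 (0.00149), while SEL1L, a part of the degradation complex, fell by 1.45 (5.7e-05). Of 7 genes of the mitochondrial unfolded protein response tested, 1 fell and none rose in HepG2, beside 8.43% and 11.6% of all genes. In Huh7, 5 rose and 1, YME1L1, fell (-1.13, adjusted p = 7.7e-05), beside 32.7% and 37.4% of all genes. Over the other settings, 4 to 6 rose and 1 to 2 fell there.

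Genes related to single members of the 10 were listed as well. Their counts stand beside the same shares of all genes, 8.43% lower and 11.6% higher in HepG2 and 37.4% lower and 32.7% higher in Huh7. Of 11 genes that respond, as DDIT4 does, to p53, hypoxia or glucocorticoids, 9 were tested in HepG2, where 1 was lower, and 7 in Huh7, where 4 were higher and 3 lower (3 and 1 after removal of the GC trend). NDRG1, a hypoxia target, rose in Huh7 by 1.40 (adjusted p = 6.0e-05). Of the FGF21 co-factors and hepatic regulators, 8 were tested in each line. In HepG2, 3 were higher, among them the receptors FGFR1 (2.17, adjusted p = 0.000139) and FGFR4 (1.17, 0.0301), and PPARGC1A, a co-activator, fell (-1.08, 0.0111). Without 1 sample, 1 to 3 of the list were higher in HepG2. In Huh7, 1 was higher and 4 were lower (none and 7 after removal of the GC trend). FGFR2 and MLXIPL reached the filter only through the Huh7 parental samples and had to be lower, and without them 2 of 6 were lower. FGFR1 did not pass (-0.03). In the ATF and TRIB family list, which also holds CHAC2 and FGF19 as relatives of CHAC1 and FGF21, 2 of 8 genes fell and none rose in HepG2, and 2 of 9 rose and 5 fell in Huh7 (4 and 3 after removal of the GC trend). TRIB1, a pseudokinase related to TRIB3, moved as TRIB3 did, falling in HepG2 from 129 ± 19 to 41.6 ± 1.44 FPKM (-1.60, adjusted p = 0.000516) and rising in Huh7 from 17.2 ± 3.02 to 35.8 ± 1.19 FPKM (1.03, adjusted p = 0.000239). FGF19 rose in Huh7 by 3.70 (adjusted p = 4.2e-06), and CHAC2 fell there by 1.22 (0.000168).

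Of the 10 hepatocyte and hepatoma markers, 3 were lower and 1 higher in HepG2, beside 8.43% and 11.6% of all genes. In Huh7, 3 were lower and 3 higher, beside 37.4% and 32.7% of all genes. The number lower in Huh7 was 1 to 3 without 1 sample, and 0 to 3 over the other settings. AFP, the fetal albumin relative, fell in both lines (-1.91 in HepG2, adjusted p = 0.000895, and -1.21 in Huh7, 0.000534), and APOA2, an apolipoprotein, rose in both (1.26, 0.00235, and 1.55, 5.8e-05). FGB, the fibrinogen beta chain, fell in HepG2 (-1.98, 0.000827). Of the 14 markers of other cell types, few were tested. The endothelial PECAM1 fell in HepG2 (3.13 to 1.34 FPKM) and rose in Huh7 (log2 change 0.31). VWF, CDH5 and KDR had means of at most 0.21 FPKM in any group. Of 2 fibroblast and stellate markers tested in HepG2, 1 fell, and the 1 tested in Huh7 did not pass. The leukocyte marker CD14 rose in Huh7 (0.79, adjusted p = 0.00509), but it reached the filter only through the resistant samples and had to be higher. The 1 leukocyte marker tested in HepG2 did not pass.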

How the data were processed

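RNA of 12 cell line samples was sequenced on NEBNext Ultra libraries, which do not keep strand, and per the labels bcl2fastq and GRCh38 were used. The aligner and quantifier are not given in the sources used here. The authors deposited 1 table of FPKM per sample, with coordinates. Samples were grouped by their labels.

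Here log2(FPKM + 1) was tested with limma 3.58.1 (trended variance, R 4.3.3), as in the study's own choice of limma, for genes with at least 1 FPKM in 3 samples of the comparison, with Benjamini-Hochberg adjustment over all genes tested. Each line was fitted alone; the difference between lines and the parental contrast used all 12 samples. Differentially expressed list genes also needed a log2 change beyond 1. FPKM values are multiples of what 1 read is worth: with GENCODE 29 exon lengths, at least 96.3% of values lay within 0.05 of a whole read, which gave read counts per gene and 12290129 to 19285959 reads per sample. On simulated data, 94.0% (Huh7), 90.5% (HepG2), 91.0% (difference) and 95.0% (parental) of 200 changed genes were recovered, among 12046, 11518, 12600 and 12598 genes. These shares were not split by level or by size of change. Recovery of low genes or of small changes, such as many of those given here, was not tested. No 2 samples agreed within sampling noise (chi-square per gene 10.2 or more between samples of a group).

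The 10 genes and the lists were chosen with earlier results of these data known. The text names all 10 genes; from each list the genes differentially expressed in both lines and the 2 highest and 2 lowest per line; and the 3 genes most like ATF4. Other pseudocounts, filters, scalings, a GC correction (lowess, span 0.3), limma-voom, a replicate block and leaving out each sample were tried. Promoter sequences are RefSeq (GRCh38.p14); all 10 symbols matched.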

Additional observations from a re-analysis of the deposited data

Results flagged for a closer look

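For 5 of the 9 genes tested, the change between resistant and parental cells differed between Huh7 and HepG2. The test was the interaction over 12 samples (limma, adjusted over all genes tested). All 5 were more positive in Huh7, beside 23.1% of all genes. The change in Huh7 minus the change in HepG2, in log2 units, was 2.31 for TRIB3, 1.18 for ATF3, 0.96 for PSAT1, 0.93 for ATF4 and 0.50 for PHGDH. TRIB3 rose in Huh7 and fell in HepG2. ATF4 and PSAT1 fell in HepG2 and did not pass the test in Huh7. ATF3 fell in HepG2 and was below the filter in Huh7, with 25 to 42 reads per sample. It reached the filter only through HepG2 parental samples, and without it the count was 4 of 8. PHGDH passed in neither line alone, and its difference between the lines passed in 17 of 21 alternative fits. No group has more than 3 samples, so single outlying samples were not tested.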

How the results depend on the processing

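In Huh7, 1 gene rose and none fell. The number that rose was 3 with upper-quartile scaling and 2 with median-ratio scaling, limma-voom or all 12 samples in 1 fit, and the number that fell was 1 with no filter, with limma without the trend, with limma-voom and no filter, or with all 12 samples in 1 fit. With the GC trend removed, 2 rose and 3 fell. Leaving out 1 sample gave 1 that rose and 0 to 1 that fell. In HepG2 the 5 that fell became 3 with no filter (TRIB3, ATF3 and, newly tested, CHAC1, so that 2 of the 5 remained), 6 with the GC trend removed, 7 with limma-voom and no filter, and 2 to 5 without 1 sample. Between the lines, 5 genes were more positive in Huh7 and none more negative, and leaving out 1 sample gave 4 to 5 and 0 to 1. With the GC trend removed, 1 (DDIT3) was more negative and PHGDH no longer passed. As more positive, CHAC1 newly passed with a pseudocount of 0.1 and ASNS with upper-quartile scaling. FGF21 did so with no filter, by limma or limma-voom. In the parental contrast, 7 were lower and 1 higher in Huh7, and 6 to 7 and 1 without 1 sample. Fitting a replicate block kept the counts in each line at 1 and 5, and gave 5 more positive and 1 more negative (DDIT3) between the lines. The replicate numbers share no stated origin. The deviations of same-numbered samples correlated at 0.08, 0.06 and -0.23 in Huh7 and at 0.25, 0.44 and -0.01 in HepG2, so the numbers were not taken as pairs. A block could not be fitted for the parental contrast, where the line and its samples coincide.

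Direction changed for ATF4 (-0.23), PHGDH (-0.17) and DDIT4 (-0.41) in Huh7, and for CHAC1 (-0.16) and DDIT4 (-0.12) between the lines, with the GC trend removed. It also changed for DDIT4 without Huh7 resistant replicate 3 (values without 1 sample -0.016 to 0.21) and without HepG2 resistant replicate 1 (0.12), for CHAC1 between the lines without Huh7 parental replicate 3 (values without 1 sample -0.022 to 0.14), and for ASNS between the lines with limma-voom (-0.30, and -0.30 with no filter). The cause was not tested. Of the other single values, 557 kept their direction and side of the threshold, 21 newly passed and 12 no longer passed. Few reads limit FGF21, CHAC1 in HepG2, and ATF3 and ASNS in Huh7. A trend with base composition, whose cause was not tested, limits the Huh7 values. Removal of this GC trend changed the sign of ATF4, PHGDH and DDIT4 and took TRIB3 from 1.00 to 0.47.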
